A study of Mus musculus with 4 samples.

Results

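The microRNAs mmu-miR-26a and mmu-miR-26b are paralogs with a common seed, and they were 2 of the 1096 mouse miRNA names on the array. The pair was chosen from measured values, because miR-26a had the highest ratio of Tlr3-/- to Tlr3+/+ small intestine at 6 hr. That ratio, and every value that contains it, is therefore given as a description. miR-26b entered as the paralog and not for its own ratio. The study measured miRNAs in whole small intestine of mice that carry the double-stranded RNA sensor TLR3 (Tlr3+/+) or lack it (Tlr3-/-). Intestine was taken either without treatment (0 hr) or 6 hr after 10 Gy of gamma-rays to the whole body, and the labels give no age or strain. The 4 groups (Tlr3+/+ 0 hr, Tlr3-/- 0 hr, Tlr3+/+ 6 hr and Tlr3-/- 6 hr) had 1 array each, hybridised with RNA pooled from 3 mice.

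Without replicate arrays there is no spread between pools or arrays against which to test a ratio of 2 arrays. The only repeated spots are controls, and those of the spike controls within an array give a technical SD of 0.15 for a log2 ratio. It holds no spread between arrays, and it comes from spots with mean raw intensities of 3276 to 3929, brighter than the members. It is therefore no yardstick for testing a ratio. Slide, as the deposited array names read, is shared by the 0 hr arrays and differs for each 6 hr array, so slide cannot be told apart from irradiation or from genotype at 6 hr. Non-treated intestine at 6 hr is not among the samples, so time and irradiation cannot be told apart. Tlr3 mRNA is not measured by a miRNA array, so the genotype labels are not checked here. In whole tissue, fewer cells of a type and less of a miRNA per cell also cannot be told apart. The labelled tissue was checked by epithelial miRNAs: all 8 listed, among them miR-192, miR-194 and miR-215, were detected on all 4 arrays, with summed raw intensities from 16234 to 19328.

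MicroRNAs are cut from hairpin precursors and guide Argonaute proteins to messenger RNAs that pair with bases 2 to 8 of the miRNA, the seed. miR-26 is known for restraining proliferation: its targets include the histone methyltransferase Ezh2 and D-type and E-type cyclins. In mice, raised miR-26a has been reported to suppress intestinal tumours. The precursors lie in genes of the small C-terminal domain phosphatases (the Ctdsp genes), with which they are transcribed.

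The mature sequences are shown because the array has to separate miRNAs that are nearly the same. They come from RefSeq (build GRCm38.p6), where both members were found, and run 5′ to 3′ with the seed in capitals.
miR-26a-5p: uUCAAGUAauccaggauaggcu
miR-26b-5p: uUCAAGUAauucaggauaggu
Read from the 5′ end, with miR-26a as the reference, the miRNAs differ by C11U and C21U, and miR-26a has 22 bases against 21. Both differences lie outside the seed. Among the 1679 mature mouse miRNAs compared, these 2 alone hold this seed. These are not all mouse miRNAs, since the RefSeq entries of a chromosome were left out. How far each probe binds the other miRNA was not tested.

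The 3 hairpins are shown because miR-26a is made from 2 loci and miR-26b from 1, so the miR-26a probe reads the sum of both loci. Capitals mark the 5p arm.
Mir26a-1: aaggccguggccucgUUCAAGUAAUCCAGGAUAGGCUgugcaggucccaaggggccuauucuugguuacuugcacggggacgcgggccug
Mir26a-2: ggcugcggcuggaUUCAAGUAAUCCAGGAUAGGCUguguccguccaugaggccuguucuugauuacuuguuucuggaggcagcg
Mir26b: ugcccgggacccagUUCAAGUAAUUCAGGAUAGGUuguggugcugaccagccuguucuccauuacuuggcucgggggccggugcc
Mir26a-1 lies at chr9:119031796-119031885 within Ctdspl, Mir26a-2 at chr10:126995530-126995613 within Ctdsp2, and Mir26b at chr1:74394310-74394394 within Ctdsp1, all on the plus strand of GRCm38.p6. The opposite strands of the 3 hairpins, which differ in sequence, were near background. miR-26a-1* passed the detection threshold on 1 of 4 arrays (Tlr3-/- 0 hr, raw intensity 27.4 against a threshold of 26.5). miR-26a-2* passed on both Tlr3+/+ arrays, at 26.6 and 28.4, and miR-26b* on all 4, between 31.7 and 33.7. These levels are too close to the thresholds of 25.8 to 29.2 to say which locus gave the miR-26a signal.

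The raw intensity of miR-26a was 457 in Tlr3+/+ and 595 in Tlr3-/- at 0 hr, and 493 in Tlr3+/+ and 727 in Tlr3-/- at 6 hr. Both Tlr3-/- arrays read higher than both Tlr3+/+ arrays, and irradiated Tlr3-/- intestine read highest. For miR-26b the raw intensities were 233 and 285 at 0 hr, and 213 and 265 at 6 hr, in the same order of genotypes. Again both Tlr3-/- arrays lay above both Tlr3+/+ arrays, but the highest was Tlr3-/- at 0 hr. miR-26a was 17.7 to 24.9 times above the detection threshold of its array and miR-26b 8.18 to 10.7 times, so neither rests on background. In the authors' normalized intensities miR-26a read 2274, 2597, 2092 and 2862 in the same order, and miR-26b 1099, 1184, 843 and 971. At each time the Tlr3-/- array was again the higher.

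**Figure D1:**
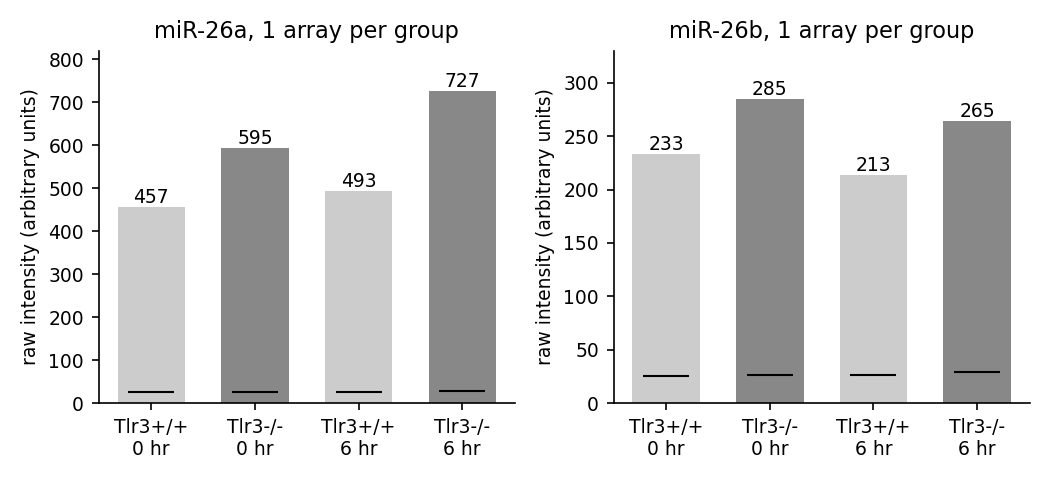
Raw intensity (arbitrary units) of miR-26a (left) and miR-26b (right) on each array, 1 bar per group, with light bars for Tlr3+/+, dark bars for Tlr3-/- and a short black line at the array's detection threshold. miR-26a reads 457, 595, 493 and 727 and miR-26b 233, 285, 213 and 265; for both, each Tlr3-/- bar is taller than each Tlr3+/+ bar.

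Raw values also carry the brightness of each array, so the ratios below are log2 ratios of intensities that were background-corrected (with an offset of 50) and quantile normalized over the 4 arrays. On this scale, miR-26a at 6 hr was 1.47-fold higher in Tlr3-/- than in Tlr3+/+ intestine (log2 0.56), the value that chose it. The next in order were miR-720 at 0.52, miR-690 at 0.46, the growth-restraining let-7b at 0.42, miR-29a, whose family targets collagens, at 0.37 and miR-21, linked to growth and inflammation, at 0.37. miR-26b at 6 hr was 1.17-fold higher (log2 0.22), order 23 from the highest of 645 miRNAs detected on both arrays. At a size limit of 0.32 on the log2 scale in either direction, which 3.88% of these 645 passed, miR-26a lay beyond the limit and miR-26b did not. Bright probes, whose ratios the offset damps less than those of dim ones, passed more often: of the 104 miRNAs above 3 times the threshold on both arrays, 21.2% passed. The reason for this was not tested.

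The nearest probes in raw signal give a closer background. miR-26a lay above all 10 of its nearest probes (5 brighter and 5 dimmer), which had a median log2 ratio of 0.17. This position was fixed in advance, because miR-26a was chosen as the highest of all miRNAs compared. They ran from -0.53 for miR-326* to 0.42 for let-7b, and 8 of 10 were above 0. Among them were let-7c at 0.30, let-7f at 0.26, miR-23a at 0.08, miR-23b at 0.14 and the epithelial miR-200c at 0.09. The same held in unnormalized intensities, where miR-26a had a log2 ratio of 0.56 and its 10 neighbours a median of 0.21 with a highest value of 0.41. miR-26b lay above 9 of its 10 neighbours, whose median was 0.07. The exception was miR-31, a miRNA of epithelium, at 0.25, and the lowest was the proliferation-linked miR-20a at -0.11.

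**Figure D2:**
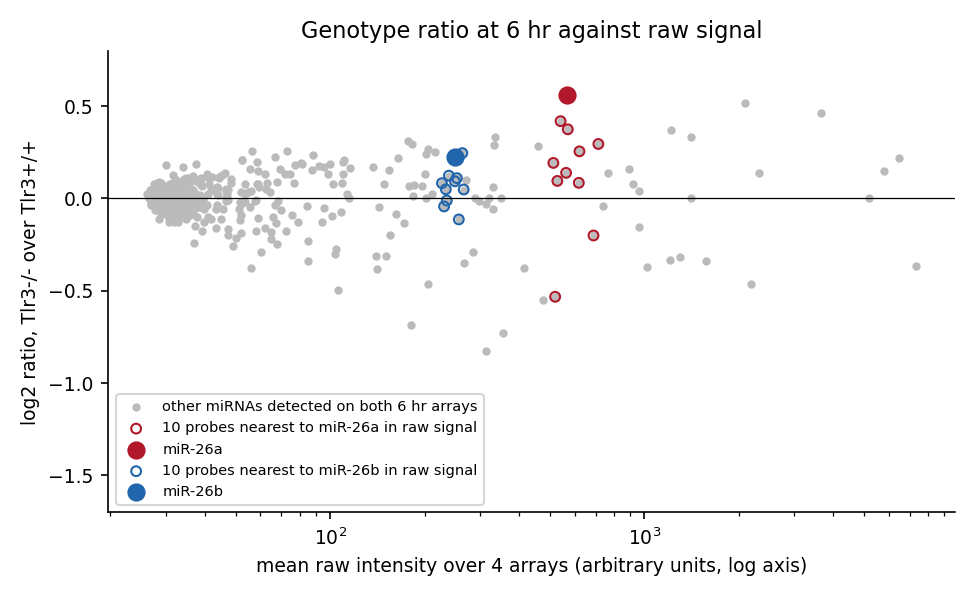
Log2 ratio of Tlr3-/- to Tlr3+/+ at 6 hr (vertical axis) against mean raw intensity over the 4 arrays (arbitrary units, log axis) for the 645 miRNAs detected on both 6 hr arrays, with miR-26a in red, miR-26b in blue and the 10 probes nearest to each as open circles. miR-26a, at 0.56, is the highest point, for which it was chosen, and miR-26b, at 0.22, is above 9 of its 10 neighbours.

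The order of miR-26a depended on the processing, its position among bright probes less so. With scaling to a median, a 75th percentile or the spike controls and with cyclic loess, miR-21 was higher and miR-26a second. In the authors' normalized values, where ratios of dim probes are not shrunk, miR-26a was at order 85, and the first was miR-337-3p, with a raw intensity of 27.5 on the lower array. Among the 100 miRNAs above 3 times the threshold on all 4 arrays, it was first or second under all 9 settings. Its log2 ratio at 6 hr was 0.40 to 0.61 in the 8 other settings, and 0.40 to 0.52 above the median of these 100 miRNAs in all 9. This comparison with the bright median was chosen after seeing the data. For miR-26b the corresponding values were 0.16 to 0.29, and 0.15 to 0.20 above that median.

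The genotypes were compared at 0 hr to see whether the pair already differed without irradiation. Both members were higher in non-treated Tlr3-/- intestine: miR-26a by 1.12-fold (log2 0.16) and miR-26b by 1.19-fold (log2 0.25). On this scale the order of the paralogs was turned, with miR-26b at order 15 and miR-26a at order 30 from the highest of 656 miRNAs. The turn depended on the processing: miR-26a minus miR-26b was -0.09 here, but above 0 in 5 of the 8 other settings, at up to 0.10. In raw intensities miR-26a was 1.30-fold and miR-26b 1.22-fold higher. Neither reached the limit of 0.32, which 2.13% of all 656 and 10.3% of the 107 bright miRNAs passed. miR-26b lay above all 10 of its neighbours in signal, whose median was -0.02, with miR-20b lowest at -0.29 and miR-31 highest at 0.12. miR-26a lay above 7 of its 10 neighbours, whose median was -0.03. The values moved with the scaling: miR-26a was at 0.37 with median scaling and 0.33 with 75th percentile scaling, and miR-26b at 0.0025 with spike scaling, where all bright miRNAs had a median of -0.22. Relative to the bright miRNAs, both members were above 0 in all 9 settings, miR-26a by 0.16 to 0.34 and miR-26b by 0.19 to 0.30.

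Irradiation was compared next within each genotype. In Tlr3+/+ intestine miR-26a and miR-26b both stood at a log2 ratio of -0.18 for 6 hr over 0 hr, 1.13-fold lower. Bright miRNAs in general were lower on this scale: the 104 above 3 times the threshold had a median of -0.20. Relative to the bright miRNAs on all 4 arrays miR-26a was at 0.03, but at 0.18 with median, 75th percentile and spike scaling and at 0.21 in the authors' values. miR-26b was at -0.06 to 0.04 in all 9 settings. Of all 680 miRNAs compared 9.56% passed the limit, and of the bright ones 43.3%, and neither member was among them. The equal ratios of the paralogs did not hold under other scalings. Raw miR-26a was 1.08-fold higher at 6 hr and raw miR-26b 0.914-fold of its 0 hr value. With median, 75th percentile and spike scaling miR-26a stood above 0, at 0.07, 0.02 and 0.06, while miR-26b was below 0 in all 8 other settings, at -0.38 to -0.15.

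In Tlr3-/- intestine the paralogs moved apart. miR-26a was 1.16-fold higher at 6 hr (log2 0.22) and miR-26b 1.15-fold lower (log2 -0.20). miR-26a was above 0 in all 8 other settings, at 0.14 to 0.41. miR-26b was below 0 in 7 of 8, at -0.29 to -0.13, and at 0.03 with spike scaling. Neither reached the limit, which 5.12% of the 625 miRNAs compared and 20.6% of the 102 bright ones passed. miR-26a lay above 8 of its 10 neighbours in signal (median 0.00), and miR-26b below 9 of its 10 (median -0.09). The neighbours of miR-26b included miR-125b-5p at 0.15 and miR-378b at -0.20. The difference of 0.42 between the paralogs was 0.34 to 0.48 in the other settings. It uses the value of miR-26a in Tlr3-/- at 6 hr, which entered the choice of the member, and it was not tested.

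**Figure D3:**
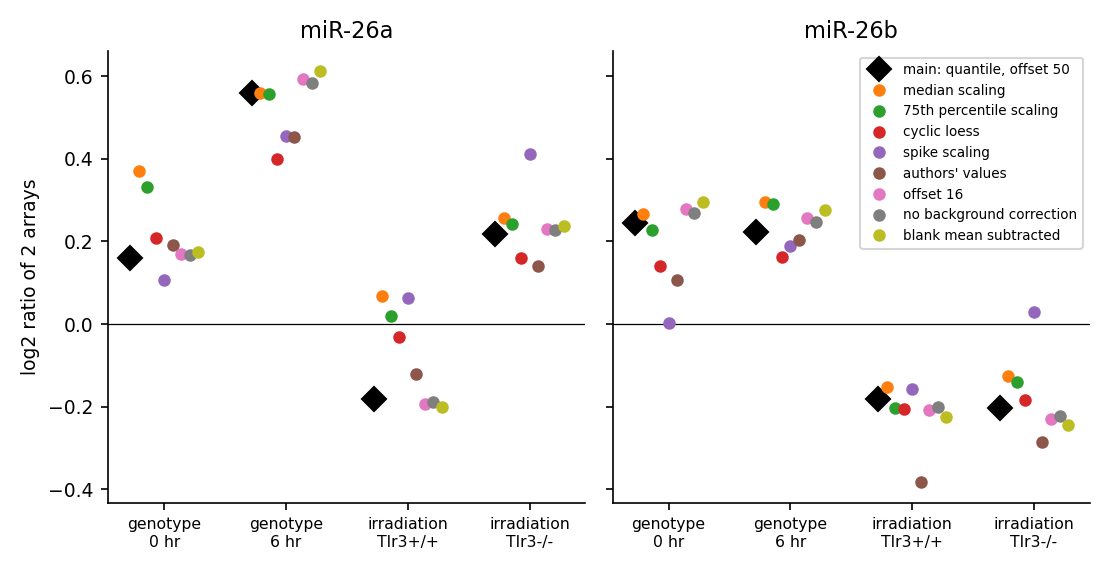
Log2 ratio of 2 arrays for miR-26a (left) and miR-26b (right) in 4 comparisons (Tlr3-/- over Tlr3+/+ at 0 hr and 6 hr, and 6 hr over 0 hr in each genotype); black diamonds are the values reported and coloured points the 8 other settings. The 6 hr genotype ratio of miR-26a stays between 0.40 and 0.61, whereas its irradiation ratio in Tlr3+/+ crosses 0, from -0.20 to 0.07.

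The irradiation ratio in Tlr3-/- exceeded that in Tlr3+/+ by 0.40 for miR-26a, and for miR-26b the difference was -0.02. For miR-26a it contains the ratio that chose the member. At 0.40 it was at order 15 from the highest of 573 miRNAs detected on all 4 arrays, and it was 0.19 to 0.44 in the other settings. The same size was passed by 8.2% of the 573 and by 35% of the 100 bright miRNAs, and miR-26a was among both. miR-26b was at 0.19 with spike scaling and between -0.02 and 0.10 in the other 7. Relative to the median of the 100 bright miRNAs, miR-26a was at 0.31 here and miR-26b at -0.11. With median and spike scaling these were 0.13 and -0.03, with cyclic loess 0.15 and -0.02, and in the authors' values 0.13 and -0.03. The gap between the paralogs was 0.42 here, but 0.16 to 0.17 in these settings. With offset 16, no background correction or the blank mean subtracted it was 0.44 to 0.46. No difference was tested, as each group had 1 array.

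Other miRNAs with shared seeds show how far such pairs lie apart on these arrays. Only the 225 miRNAs detected on all 4 arrays and matched to a RefSeq mature sequence of the set compared above entered, so families such as miR-30 are covered in part. Among these, bases 2 to 8 were the same in 97 pairs, from 24 seed families, and in 62 pairs of 13 families with both members bright. Pairs of a family share members and are not independent. At 6 hr the genotype ratio of miR-26a exceeded that of miR-26b by 0.34, a gap fixed in part by the choice of miR-26a. Of the 61 other bright pairs, 2 had a larger gap, let-7a with let-7b at 0.38 and miR-29a with miR-29b at 0.37, and their median was 0.11. For irradiation in Tlr3-/- the gap of 0.42, which uses the same miR-26a value in Tlr3-/- at 6 hr and is thus also fixed in part, was exceeded by 7 of 61 pairs (median 0.16), the largest being let-7a with let-7c at 0.69. At 0 hr the gap was 0.09 against a median of 0.14. The gap in Tlr3+/+ after irradiation was smaller than in the 61 other pairs, 0.0001 against a median of 0.12, but it was 0.17 to 0.26 with median, 75th percentile, spike and cyclic loess scaling and in the authors' values.

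**Figure D4:**
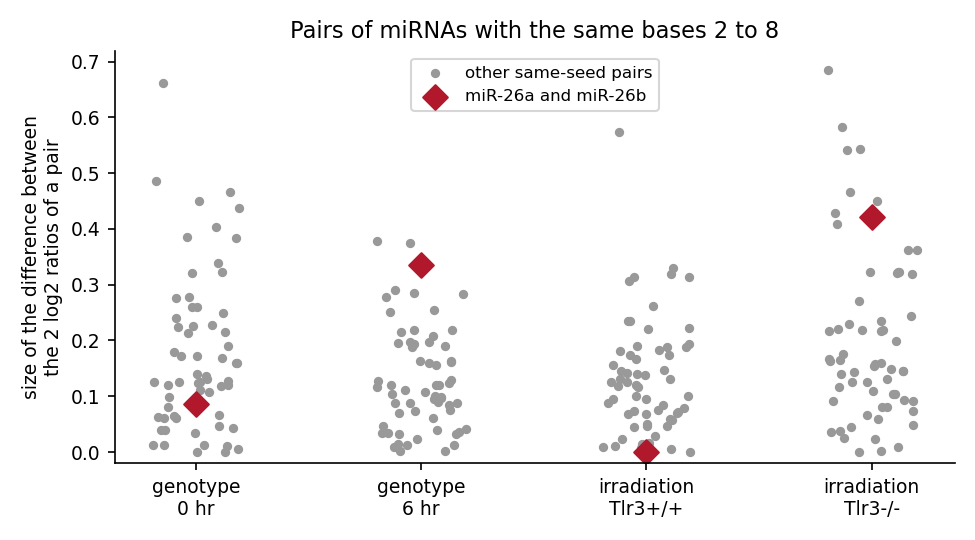
Size of the difference between the log2 ratios of 2 miRNAs that share bases 2 to 8, for 62 pairs with both members above 3 times the detection threshold; the red diamond is miR-26a with miR-26b, grey points are the 61 other pairs, and horizontal scatter within a comparison has no meaning. The miR-26 pair stands at 0.09 and 0.34 for genotype at 0 hr and 6 hr and at 0.0001 and 0.42 for irradiation in Tlr3+/+ and Tlr3-/-.

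The miRNAs nearest in pattern were found from the 4 log2 values of each miRNA, centred on their mean, as the root mean square difference from each member over the 4 arrays, among 572 candidates. Nearest to miR-26a were miR-215* (0.12), the star strand of an epithelial miRNA, miR-30c (0.12), miR-30d (0.13), miR-181a (0.13) and miR-31 (0.14). After normalization all 5 were lowest in Tlr3+/+ at 6 hr. None reached the centred value of miR-26a in Tlr3-/- at 6 hr, 0.29, against 0.05 to 0.11 for these 5. That value of miR-26a entered its choice, so this gap is fixed in part. In 8 other settings, an alternative chosen after seeing the data, miR-215* stayed within the nearest 5 in 6, miR-30c and miR-30d in 5, miR-181a in 3 and miR-31 in 0.

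Nearest to miR-26b were miR-150 (0.02), miR-1195 (0.02), miR-142-3p (0.02), miR-146a (0.04) and let-7g (0.05). Of these, miR-150, miR-142-3p and miR-146a are miRNAs of leukocytes. Raw miR-150 read 53.5, 66.6, 45.0 and 60.5 for Tlr3+/+ and Tlr3-/- at 0 hr and then at 6 hr, and raw miR-142-3p read 53.9, 68.8, 48.7 and 62.4. Both were highest in Tlr3-/- at 0 hr and lowest in Tlr3+/+ at 6 hr, as was miR-26b. The likeness depended on the setting: miR-142-3p stayed within the nearest 5 in 6 of 8 other settings, miR-150 in 4 and miR-146a in 1, and miR-150 fell as far as order 237. miR-26a was at order 372 from miR-26b, and miR-26b at order 28 from miR-26a. No p is given, since 4 arrays of 4 groups are no replicates.

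**Figure D5:**
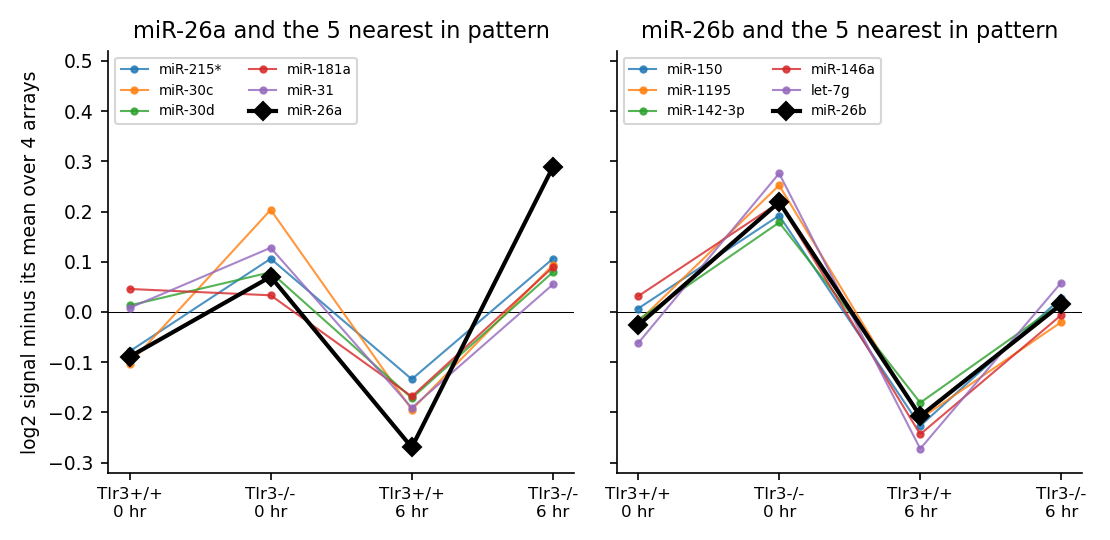
Log2 signal of each miRNA minus its own mean over the 4 arrays (vertical axis) in the 4 groups, for miR-26a (left) and miR-26b (right) in black and the 5 miRNAs nearest to each in colour; lines join groups to show the pattern only. miR-26b runs with its 5, which were picked for the smallest difference from it. miR-26a at 0.29 in Tlr3-/- at 6 hr, a value that entered its choice, lies above its 5, which are at 0.05 to 0.11.

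All 6 leukocyte markers were detected on all 4 arrays. Their summed raw intensity was 435 and 527 in Tlr3+/+ and Tlr3-/- at 0 hr and 373 and 426 at 6 hr. Of the 6, 5 were above 0 in Tlr3-/- over Tlr3+/+ at each time (medians 0.19 at 0 hr and 0.17 at 6 hr). The exceptions were miR-223, at 0 at 0 hr, and miR-142-5p, at -0.07 at 6 hr. For irradiation all 6 were below 0 in each genotype (medians -0.23 in Tlr3+/+ and -0.16 in Tlr3-/-). Of the bright miRNAs, 77 of 104 in Tlr3+/+ and 56 of 102 in Tlr3-/- were also below 0. Above 0 for genotype were 38 of 107 bright miRNAs at 0 hr and 60 of 104 at 6 hr. The 8 epithelial markers had medians of -0.09 and 0.12 for genotype at 0 hr and 6 hr, and of -0.33 and 0.00 for irradiation in Tlr3+/+ and Tlr3-/-. The 4 smooth muscle markers matched by name had 0.01, 0.06, -0.20 and -0.14 in the same order. The bright miRNAs had medians of 0.00, 0.07, -0.20 and -0.07 in this order, and all miRNAs compared had -0.01 to 0.01. Red cell miR-451 had 1.56, -0.49, 1.11 and -0.94 in that order, but the other red cell miRNAs did not follow it where measured. Its partner miR-144, detected on 3 arrays, had -0.01 for genotype at 0 hr and 0.004 for irradiation in Tlr3-/-. The probe that reads miR-486 together with miR-3107, not matched by name to the list, had 0.05 for genotype at 6 hr. The part of these cell types in the miR-26 values was not tested.

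The miR-26 pair was also placed among miRNAs with related known roles. Of 16 miRNAs listed as Ezh2-targeting (miR-26, miR-101, miR-138, miR-124, miR-214 and let-7), 15 were measured at 6 hr. Of these, 13 had genotype ratios above 0, as did 355 of all 645 miRNAs and 60 of the 104 bright ones. Within the list miR-26a, let-7b and let-7g (0.33) passed the limit upwards and 0 downwards. The limit was passed by 3.88% of all 645 miRNAs and by 21.2% of the bright ones, and miR-26a was chosen on this ratio. The median of the 15, miR-26a included, was 0.14, against 0.01 over all 645 miRNAs and 0.07 over the 104 bright ones. Outside the miR-26 and let-7 families, miR-101a was at 0.08, miR-101b at 0.11, miR-138 at -0.09 and miR-214 at -0.04, all dim probes of raw intensity 28.4 to 40.5. For irradiation the list had a median of -0.20 in Tlr3+/+ with 14 of 15 below 0, and of -0.06 in Tlr3-/- with 9 of 15 below 0. The bright miRNAs had medians of -0.20 and -0.07, with 77 of 104 and 56 of 102 below 0. At 0 hr the median of the list's genotype ratios was 0.00, with 7 above 0 and 7 below.

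A list of 22 growth-restraining miRNAs (let-7, miR-15/16, miR-29, miR-34 and miR-26) had 21 measured at 6 hr, of which 20 were above 0 in Tlr3-/- and miR-29b was at 0. The median was 0.20, and 4 passed the limit, namely miR-26a, chosen on this value, let-7b, let-7g and miR-29a. Of the 104 bright miRNAs, 21.2% passed the limit in either direction and 60 were above 0. miR-16 was at 0.28, miR-15a at 0.29 and the p53 target miR-34a at 0.19. At 0 hr the median was 0.01, with miR-195 highest at 1.32 and let-7c lowest at -0.32. After irradiation 20 of 21 were below 0 in Tlr3+/+ (median -0.26), the exception being miR-195 at 0.99. In Tlr3-/- 12 of 20 were below 0 (median -0.08), with let-7c highest at 0.32 and miR-29b lowest at -0.48. Raw miR-195 read 39.6 in Tlr3+/+ and 143 in Tlr3-/- at 0 hr, and 111 and 146 at 6 hr. Its values of 1.32 and 0.99 thus both rest on 1 low reading, in Tlr3+/+ at 0 hr. The Ezh2-targeting and growth-restraining lists share the let-7 miRNAs, miR-98, miR-26a and miR-26b, so they are not independent. Most members of both lists were below 0 in Tlr3+/+, as were 77 of the 104 bright miRNAs. In Tlr3-/- 56 of the 102 bright miRNAs were below 0.

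The average irradiation change over both genotypes was tested for miR-26b, which was not chosen for its own values. In the limma fit, with 1 residual degree of freedom, miR-26b had an estimate of -0.19 ± 0.02 (SE, log2) with an adjusted p of 0.222 over 797 miRNAs, and was lower at 6 hr in both genotypes. It did not pass an adjusted p of 0.05. On the main scale the estimate for miR-26a was 0.02, its ratios being opposite in sign. No p is given for miR-26a because its residual contains the ratio that chose it. In the 10 other settings its estimate was 0.01 to 0.24. With median, 75th percentile and spike scaling it was 0.16, 0.13 and 0.24, and there both its ratios were above 0. With limma 0 of 797 miRNAs passed it (0%), and 100 had an unadjusted p under 0.05. Adjusted p-values in the 10 other settings were 0.212 to 0.965 for miR-26b. The estimate for miR-26b was -0.33 to -0.06 in these settings, and with spike scaling its ratio in Tlr3-/- was above 0, at 0.03. Its SE was 0.06 when only miRNAs above 3 times the threshold were fitted, and 0.19 with the blank mean subtracted. The SE of 0.02 is therefore no measure of precision. The spread behind the SE and the p-values is the disagreement between genotypes and not between replicate pools.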

How the data were processed

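Total RNA from small intestine was labelled with the dye Hy5 (Exiqon miRCURY LNA kit) after a Qiagen miRNeasy extraction, per the labels' protocols. Per array the authors deposited raw, background-subtracted and globally normalized intensity of 3136 spots, 1818 of them blank, per the file headers. Against the raw values, the authors' normalized intensity was the raw value minus the blank mean (5% left out at each end), times 1 factor per array, and cells were empty up to a threshold, the blank mean with 2 SD added, which was used here for detection. The labels name no scanner or software.

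Raw intensities were corrected with normexp on the blank spots (nec, limma 3.58.1, R 4.3.3, offset 50), quantile normalized over 1096 mouse and 39 viral probes and put on a log2 scale. The offset shrinks ratios of dim probes, and quantile normalization gives equal ranks equal values. Ratios used miRNAs detected on the arrays compared. The limma fit had terms for genotype and irradiation, with Benjamini-Hochberg adjustment over miRNAs detected on at least 2 arrays. Tested on simulated data, it also called unchanged miRNAs, so its p-values may be too small. Named miRNAs are the members, other strands of their precursors, the 5 brighter and 5 dimmer probes next to each member in raw signal, the 5 nearest in pattern, the 5 next highest at 6 hr, members of 2 lists and 4 marker lists, and extreme same-seed pairs. Other miRNAs were named after their values were seen. Where an array name gives no arm, the arm was assigned from general knowledge. Members and lists were chosen with earlier results of these data known.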

Additional observations from a re-analysis of the deposited data

Results flagged for a closer look

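For miR-26a the log2 ratio of 6 hr to 0 hr was below 0 in Tlr3+/+ (-0.18) and above 0 in Tlr3-/- (0.22), a difference of 0.40 between the genotypes with opposite directions. The difference was not tested, since each genotype had 1 array per time. In Tlr3+/+ the direction turned under median, 75th percentile and spike scaling.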

How the results depend on the processing

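The 8 other settings were 3 scalings to 1 factor, cyclic loess, the authors' values, offset 16, no background correction and subtraction of the blank mean. In these, 15 recomputed ratios of the members moved by more than 0.15, the technical SD of a ratio from spots within an array. Those of miR-26a were its 6 hr genotype ratio with cyclic loess (0.40), its 0 hr genotype ratio with median (0.37) and 75th percentile scaling (0.33), and its irradiation ratio in Tlr3+/+ with median (0.068), 75th percentile (0.019), cyclic loess (-0.031) and spike scaling (0.063). Its irradiation ratio in Tlr3-/- was 0.41 with spike scaling, and the difference of the ratios was 0.19, 0.22 and 0.19 with median, 75th percentile and cyclic loess scaling. For miR-26b spike scaling gave 0.0025 for genotype at 0 hr, 0.029 for irradiation in Tlr3-/- and 0.19 for the difference, and the authors' values gave -0.38 for irradiation in Tlr3+/+. The irradiation estimate of miR-26a averaged over genotypes, not counted among these ratios, was 0.24 with spike scaling against 0.02. The cause of these shifts was not tested. Counts past the size limit of 0.32 on the log2 scale changed most where dim probes were not damped: the authors' values gave 321, 296, 416, 278 and 299 for genotype at 6 hr and 0 hr, irradiation in Tlr3+/+ and Tlr3-/- and the difference, against 25, 14, 65, 32 and 47; subtraction of the blank mean gave 304, 264, 386, 277 and 308. Offset 16 gave 57, 32, 117, 56 and 91, no background correction gave 38 and 24 for genotype, 75th percentile scaling 42 for irradiation in Tlr3+/+, and spike scaling 62 for genotype at 0 hr and 55 for irradiation in Tlr3-/-. A limit of 1.5-fold left 3, 6, 23, 15 and 15, by construction. Spike scaling shifted the median of all compared miRNAs to -0.25 for genotype at 0 hr and 0.15 for irradiation in Tlr3-/-. The limma fit called 0 miRNAs, 1 to 3 with median, 75th percentile or cyclic loess scaling and 35 with spike scaling, and miR-26b in none of these. No paired analysis was possible because the samples carry no replicate numbers and each group has 1 array.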
